A study of Canis lupus familiaris with 9 samples.

Results

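The translation initiation and elongation factors of dog skeletal muscle are the subject of this account. They were taken as all genes whose only platform symbol starts with EIF1 to EIF6 or EEF, without the EIF2AK kinases, the EIF4EBP genes and EIF4E itself. Of 15115 genes named by at least 1 probe set, 52 met this rule, with 115 probe sets between them, and where a gene had several, the one brightest on average over the 9 arrays stood for it. A probe set is a group of short array probes that read 1 transcript. The muscle came from 9 intact female beagles, 4 years old, of which 5 had been fed ad libitum, that is without restriction, for 24 weeks and 4 had been fed to hold their baseline body weight (control). All dogs ate the same commercial diet, and all were fasted overnight before the muscle was taken. Each dog was a separate animal with 1 Affymetrix array, and the sources used here do not name the muscle. The comparison asked which transcripts differ between free feeding and weight maintenance. Values are log2 GCRMA values, in which 1 unit is a doubling. Per-dog values are listed in the order of dogs 2, 5, 6, 7 and 8 for ad libitum and dogs 1, 3, 4 and 9 for control.

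Translation begins when the initiation factor eIF2, carrying GTP and the initiator tRNA, joins the small ribosomal subunit together with eIF1, eIF1A, eIF3 and eIF5. The eIF4 factors bring this complex to the capped end of the mRNA and unwind it, and eIF5B joins the large subunit once the start codon is found. The exchange factor eIF2B recharges eIF2 with GTP, a step that is blocked when eIF2 alpha is phosphorylated. In elongation eEF1A delivers each aminoacyl-tRNA, the eEF1B complex recharges it, and eEF2 moves the ribosome along. Muscle fibres are known for switching after birth from the eEF1A1 form to eEF1A2, which muscle, heart and neurons use. Feeding and amino acids act on these factors mainly through phosphorylation, which an mRNA array does not read.

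Of the 52 genes, 48 exceeded a log2 value of 4 on 4 or more arrays and were tested among 18394 probe sets. Array pairs correlated at r = 0.976 to 0.994. Muscle fibre markers were high in all dogs, with means over 11 of 12 fixed genes of 15.11 to 15.60 in ad libitum and 15.42 to 15.61 in control dogs. Markers of some other cell types had the higher mean in ad libitum dogs, with overlapping ranges. The mean of 8 fibroblast and matrix markers was 8.31 to 12.39 in ad libitum and 8.02 to 9.21 in control dogs, with 8 of 8 higher, and the mean of 7 adipocyte markers was 7.87 to 10.01 against 6.43 to 8.92, with 7 of 7 higher. The 4 measured macrophage markers, all higher, had means of 4.77 to 8.70 against 4.60 to 5.59, while CD68, CSF1R and AIF1 were below the filter. Only ad libitum dog 7 lay within the control range of the fibroblast and matrix mean. The endothelial mean and the smooth muscle and pericyte mean, over 6 markers each, differed by -0.0025 and 0.028. The mean of 2 red blood cell markers differed by -0.11. Of 6 lymphocyte markers, 5 were below the filter. For RNA quality, 1 pair of GAPDH control probe sets gave 3' minus 5' values of 2.21 ± 0.068 (SD, n = 5) and 2.09 ± 0.11 (SD, n = 4), and another pair gave -0.25 in both groups.

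No initiation or elongation factor passed the test. With limma, 0 of 48 had an adjusted p under 0.05, where 0% of all probe sets did, and 0 had an unadjusted p under 0.05, against 5.91% of all 18394 probe sets (3.71% higher and 2.21% lower) and 6.23% of the 7534 tested genes (4.1% higher and 2.12% lower). The lowest p among the factors was 0.0639, for EIF4E3, and the lowest adjusted p was 0.797. In none of the 48 did all ad libitum dogs lie on 1 side of all control dogs, against 1.44% of all probe sets and 1.46% of tested genes. The differences, ad libitum minus control, ran from -0.42 to 0.43 on the log2 scale, with a median of -0.046 and a median size of 0.083, against a median of -0.0082 and a median size of 0.15 over all probe sets. Of the 48, 33 had the lower mean in ad libitum dogs and 15 the higher, where 51.6% of all probe sets and 50.4% of tested genes had the lower. With the adipocyte or the fibroblast and matrix marker mean of each dog as a covariate, 25 or 22 of the 48 were lower. Both marker means were themselves higher in ad libitum dogs, by 1.36 and 1.86. Feeding and marker level therefore cannot be told apart in any fit with these covariates, here or below. The factors share dogs and vary together, so the split into lower and higher factors was not tested.

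A p above the threshold does not show that levels were alike, so the 95% interval of each difference was set against a 1.5-fold change in either direction, 0.58 on the log2 scale. The whole interval lay inside that range for 34 of the 48 factors, or 70.8%, against 46.6% of all probe sets and 48.2% of tested genes. For the other 14 the data allow a change of 1.5-fold or more. The median standard deviation over the 9 dogs was 0.23 for the factors and 0.31 for all probe sets. The factors were not matched in level to these backgrounds, and the part of level in these contrasts was not tested. Since muscle is a mixture, fewer cells of a type and less RNA per cell cannot be told apart in any of these values.

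**Figure D1:**
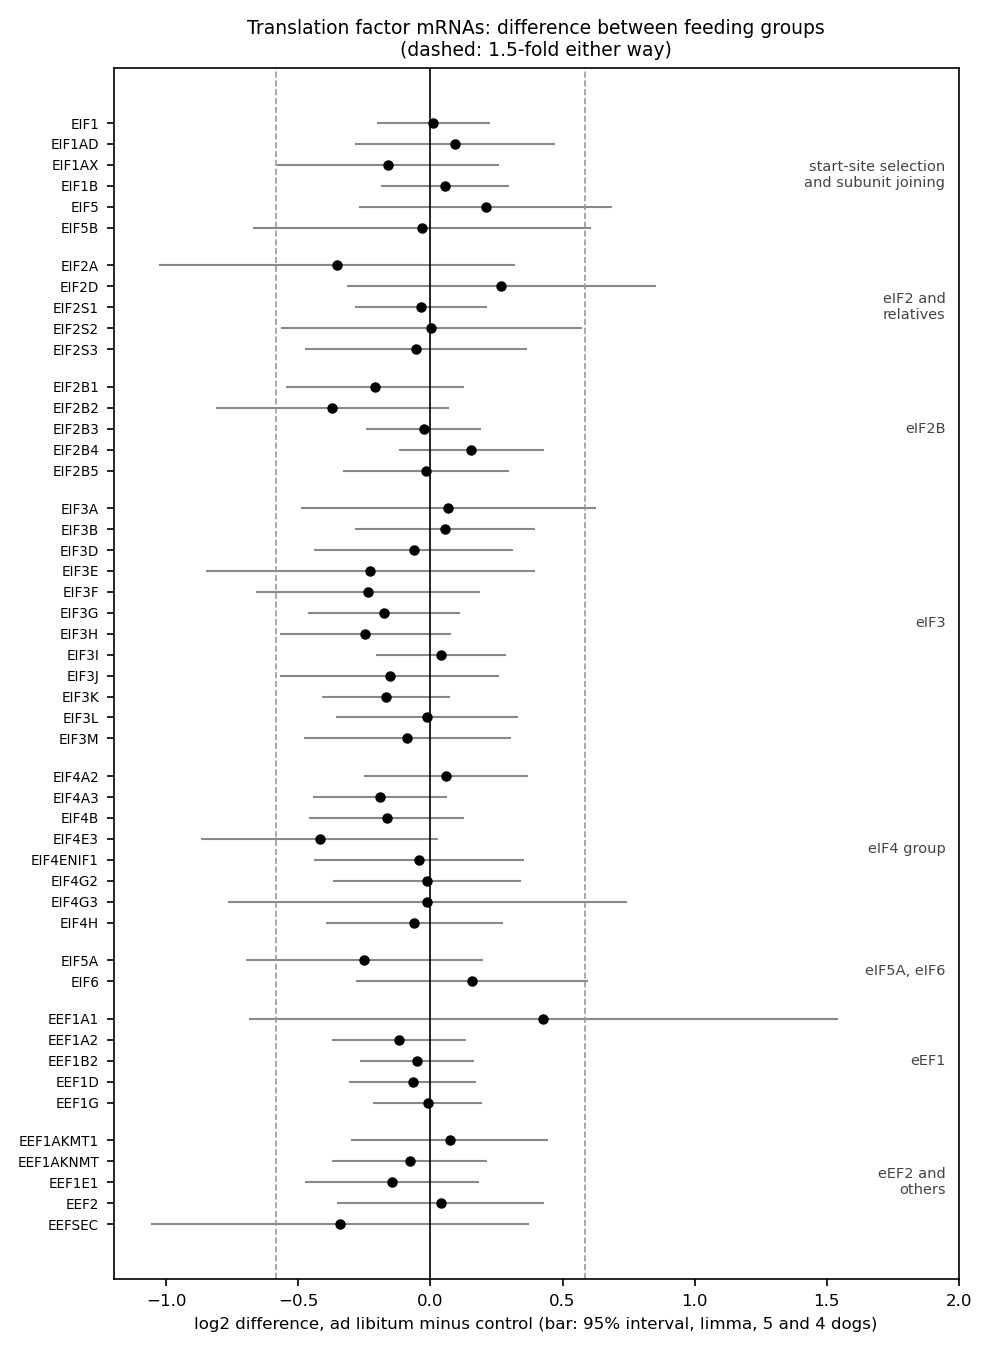
Log2 difference between ad libitum and control dogs (x axis) of the 48 tested factors, by complex, with points for the fitted difference and bars for its 95% interval from limma (5 and 4 dogs). All 48 intervals include 0, and 34 lie wholly between the dashed lines at 1.5-fold in either direction.

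The factors of start-site selection and subunit joining had a median difference of 0.033, with 4 of 6 members higher and 2 lower in ad libitum dogs. EIF1, which guards the choice of start codon, varied little. Its values were 14.92, 14.92, 14.89, 14.98 and 14.89 in ad libitum and 14.75, 14.99, 14.97 and 14.93 in control dogs, a difference of 0.0099 (SE 0.095, 95% interval -0.20 to 0.22). The control dogs covered the whole ad libitum range, and 5 probe sets of EIF1 gave -0.090 to 0.0099. Its close relative EIF1B differed by 0.055 (95% interval -0.19 to 0.30), and the change of EIF1B against EIF1 was 0.045.

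EIF5, which makes eIF2 hydrolyse its GTP at the start codon, had the largest difference of this group. It stood at 11.64, 11.78, 11.44, 12.01 and 11.88 in ad libitum dogs and at 11.63, 12.06, 10.96 and 11.52 in control dogs. Control dog 4 was lowest and control dog 3 highest of all 9, so the ad libitum values lay within the control range. The means were 11.75 ± 0.22 (SD, n = 5) and 11.54 ± 0.45 (SD, n = 4), a difference of 0.21 (SE 0.21). Its 4 probe sets gave 0.19 to 0.30, while leaving out control dog 4 gave 0.016 and leaving out control dog 3 gave 0.38. The EIF5 difference was 0.15 or 0.44 with the adipocyte or the fibroblast and matrix marker mean as a covariate. EIF5B, the GTPase of subunit joining, spread widely, at 8.57, 9.23, 9.56, 9.83 and 10.06 against 9.56, 9.21, 9.38 and 9.78, with ad libitum dog 2 lowest and dog 8 highest. EIF1AX and EIF1AD differed by -0.16 and 0.094. Without ad libitum dog 8, whose EIF1AD value of 5.64 was the lowest, EIF1AD differed by 0.23, and without control dog 9 by 0.019.

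The 3 subunits of eIF2 had differences near 0. EIF2S1, the alpha subunit that the stress kinases phosphorylate, stood at 9.84, 9.69, 9.85, 9.80 and 9.97 in ad libitum and 10.03, 9.67, 9.84 and 9.93 in control dogs. The lowest and highest values both belonged to control dogs, and the difference was -0.037 (SE 0.11, 95% interval -0.29 to 0.21). EIF2S2, the beta subunit, differed by 0.0029 (95% interval -0.57 to 0.57) and EIF2S3, the GTP-binding gamma subunit, by -0.054 (95% interval -0.47 to 0.37).

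The noncanonical factors EIF2A and EIF2D, which can bring tRNA to the ribosome without eIF2, were more variable. EIF2A stood at 8.49, 8.81, 9.44, 9.77 and 9.83 in ad libitum dogs and 9.23, 9.55, 9.71 and 9.98 in control dogs. Ad libitum dogs 2 and 5 lay below all controls, and the other 3 within the control range. The means were 9.27 ± 0.60 (SD, n = 5) and 9.62 ± 0.31 (SD, n = 4), a difference of -0.35 (SE 0.30). The 3 probe sets of EIF2A gave -0.35 to -0.20. With the adipocyte or the fibroblast and matrix mean as a covariate its difference was 0.039 or 0.081, and leaving out ad libitum dog 2 or dog 8 it was -0.16 or -0.49. EIF2D differed by 0.27 (SE 0.26), with 3 ad libitum dogs at 10.89 to 10.95 and control dog 9 at 11.09. Its 4 probe sets ran from -0.25 to 0.27, so they did not share a direction. The difference was 0.50 without control dog 9 (limma adjusted p = 0.920) and 0.15 without control dog 1.

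The 5 subunits of eIF2B had a median difference of -0.026, with 4 lower and 1 higher. EIF2B2, the beta subunit of its regulatory core, had the second lowest p of all factors. It stood at 7.56, 6.55, 7.02, 7.42 and 7.19 in ad libitum dogs and at 7.57, 7.66, 7.41 and 7.44 in control dogs. Ad libitum dogs 5, 6 and 8 lay below all controls, while dogs 2 and 7 lay among them. The means were 7.15 ± 0.39 (SD, n = 5) and 7.52 ± 0.11 (SD, n = 4), a difference of -0.37 (SE 0.20, 95% interval -0.81 to 0.071, limma adjusted p = 0.797). The other probe set of EIF2B2 gave -0.26. Without ad libitum dog 2 the difference was -0.47, with an unadjusted p under 0.05 and a limma adjusted p of 0.843, and without ad libitum dog 5 it was -0.22. It was -0.37 or -0.019 with the adipocyte or the fibroblast and matrix covariate.

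The other subunits of the regulatory core were EIF2B1 and EIF2B4. EIF2B1 differed by -0.21 (SE 0.15), and by -0.097 without control dog 4, which at 8.89 stood above the other 3 controls at 8.41 to 8.47, and it was -0.018 or -0.046 with the adipocyte or the fibroblast and matrix covariate. EIF2B4 differed in the other direction, by 0.16 (SE 0.12), with control dog 3 at 11.02 and the other controls at 10.59 to 10.72. Without control dog 3 its difference was 0.25 (limma adjusted p = 0.951), and without control dog 4 it was 0.11. EIF2B5, the catalytic epsilon subunit, stood at 8.52, 8.15, 8.35, 8.46 and 8.47 against 8.19, 8.74, 8.29 and 8.40. Ad libitum dog 5 was lowest and the other 4 lay within the control range, and the difference was -0.017 (95% interval -0.33 to 0.30). EIF2B3, its catalytic partner, differed by -0.026 (95% interval -0.24 to 0.19).

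The 12 measured eIF3 subunits, the scaffold that holds the small subunit open for mRNA, had a median difference of -0.12, with 9 lower and 3 higher and none past the test. That median was -0.031 with the fibroblast and matrix covariate, -0.11 with the adipocyte covariate, and -0.056 or -0.19 when ad libitum dog 2 or dog 8 was left out. EIF3H was furthest apart, at 12.95, 12.79, 13.11, 13.14 and 13.45 in ad libitum and 13.47, 13.42, 13.24 and 13.22 in control dogs. In all, 4 ad libitum dogs lay below all controls, and dog 8 stood near the top of the control range. The means were 13.09 ± 0.24 (SD, n = 5) and 13.34 ± 0.12 (SD, n = 4), a difference of -0.25 (SE 0.14, 95% interval -0.57 to 0.078). Both probe sets of EIF3H gave values of -0.25 and -0.24, and without ad libitum dog 8 the difference was -0.34 (limma adjusted p = 0.733). It was -0.17 without ad libitum dog 5 and -0.11 with the fibroblast and matrix covariate.

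EIF3F, a subunit that in muscle is bound by the atrophy ligase MAFbx, stood at 13.70, 13.50, 13.35, 13.75 and 13.94 in ad libitum and 13.90, 14.36, 13.51 and 13.77 in control dogs. Ad libitum dogs 5 and 6 were lowest and control dog 3 highest, with the rest mixed. The difference was -0.24 (SE 0.19, 95% interval -0.66 to 0.19). It was -0.078 without control dog 3, -0.36 without control dog 4 and -0.021 with the fibroblast and matrix covariate. Its 3 probe sets gave -0.50 to -0.16, and the one at -0.50 (limma adjusted p = 0.797) was the only one of the factors' 94 tested probe sets with an unadjusted p under 0.05. EIF3K, EIF3G and EIF3E differed by -0.17, -0.18 and -0.23, EIF3J, EIF3M, EIF3D and EIF3L by -0.16, -0.087, -0.064 and -0.013, and EIF3A, EIF3B and EIF3I by 0.068, 0.054 and 0.040. EIF3A, the largest scaffold subunit, had a standard deviation of 0.52 among ad libitum and 0.12 among control dogs, with ad libitum dog 2 at 10.49 and dogs 7 and 8 at 11.70 and 11.79.

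The eIF4 group, which binds the cap and unwinds the mRNA leader, had a median difference of -0.052 over 8 tested members, with 7 lower and 1 higher. EIF4E3, a cap-binding relative of EIF4E, had the largest difference of the group and the lowest p of all factors. It stood at 4.38, 4.36, 4.67, 4.40 and 4.33 in ad libitum dogs and at 5.00, 4.39, 4.60 and 5.39 in control dogs. Control dogs 9 and 1 were highest, and control dogs 3 and 4 stood among the ad libitum dogs. The means were 4.43 ± 0.14 (SD, n = 5) and 4.85 ± 0.45 (SD, n = 4), a difference of -0.42 (SE 0.20, 95% interval -0.87 to 0.030, limma adjusted p = 0.797). These values lie close to the filter at log2 4, where GCRMA values are uncertain in size. Without control dog 9 the difference was -0.24. It was -0.57 without control dog 3, -0.46 with arrays centred on their medians, -0.53 with array weights and -0.64 with the adipocyte covariate. In the last 4 settings its unadjusted p was under 0.05 and its limma adjusted p was 0.951, 0.770, 0.463 and 1.000.

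EIF4A2, the form of the eIF4A helicase that was tested here, stood at 14.05, 14.25, 14.43, 14.25 and 14.39 in ad libitum and 14.21, 13.94, 14.21 and 14.51 in control dogs. The ad libitum dogs lay within the control range, and the difference was 0.058 (SE 0.14, 95% interval -0.25 to 0.37). EIF4A3, the related helicase of the exon junction complex, differed by -0.19 (SE 0.11). EIF4B and EIF4H, which stimulate the helicase, differed by -0.17 and -0.062. The other tested probe set gave -0.10 for EIF4B and -0.26 (SE 0.17) for EIF4H. The scaffolds EIF4G2 and EIF4G3 differed by -0.013 (95% interval -0.37 to 0.34) and -0.012 (95% interval -0.77 to 0.74). EIF4G3 varied between dogs of both groups, from 8.23 to 9.59 in ad libitum and from 8.51 to 9.72 in control dogs. EIF4ENIF1, which carries EIF4E into the nucleus, differed by -0.043. EIF4A1, EIF4G1 and EIF3C were not analysed here.

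EIF5A, the hypusine-bearing factor that helps ribosomes through difficult peptide bonds, stood at 9.60, 9.57, 9.20, 9.86 and 9.43 in ad libitum and 9.70, 10.17, 9.28 and 9.97 in control dogs. Control dog 4 and ad libitum dog 6 were low and control dogs 3 and 9 high. The means were 9.53 ± 0.24 (SD, n = 5) and 9.78 ± 0.38 (SD, n = 4), a difference of -0.25 (SE 0.20, 95% interval -0.70 to 0.20), and without control dog 4 it was -0.42 (limma adjusted p = 0.866). It was -0.12 without control dog 3 and -0.0032 with the fibroblast and matrix covariate. EIF6, which keeps the large subunit from joining early, stood at 8.85, 8.64, 8.20, 8.51 and 8.05 against 8.37, 8.64, 8.13 and 8.04. Ad libitum dog 2 was highest and the others overlapped the controls, with a difference of 0.16 (SE 0.20, 95% interval -0.28 to 0.60). Its second probe set gave -0.0052.

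**Figure D2:**
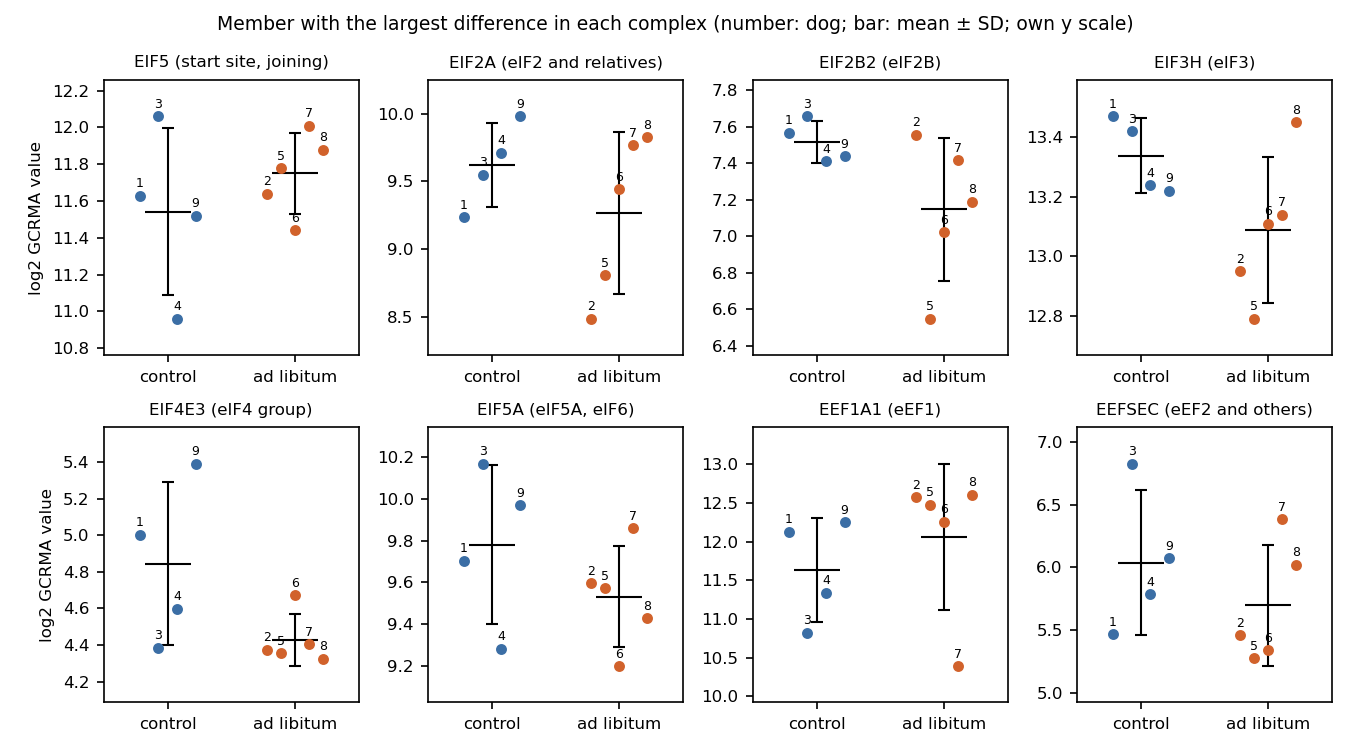
Log2 GCRMA value of each dog for the member with the largest difference in each complex, with dogs numbered, control left and ad libitum right, bars for the mean ± SD (n = 4 and 5) and a separate y axis per gene. The groups overlap in all 8 panels, and for EEF1A1 ad libitum dog 7 lies apart at 10.39.

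Of the 5 eEF1 members, 4 had intervals inside the 1.5-fold range, with a median difference of -0.050. EEF1B2 and EEF1D, which recharge eEF1A with GTP, differed by -0.050 (95% interval -0.27 to 0.17) and -0.067 (95% interval -0.31 to 0.17). The other probe set of EEF1D gave -0.24 (SE 0.13). EEF1G, of the same complex, differed by -0.011 (95% interval -0.22 to 0.20). EEF1A2, the muscle form of the tRNA carrier, stood at 14.12, 13.97, 13.96, 14.18 and 14.29 in ad libitum and 14.17, 14.38, 14.13 and 14.22 in control dogs. Ad libitum dogs 2, 5 and 6 lay below all controls, dogs 7 and 8 among them, and the difference was -0.12 (SE 0.11, 95% interval -0.37 to 0.13).

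EEF1A1, the form made by most other cells, was the member outside that range. It stood at 12.58, 12.48, 12.26, 10.39 and 12.61 in ad libitum dogs and at 12.13, 10.82, 11.34 and 12.25 in control dogs. Ad libitum dogs 2, 5, 6 and 8 lay above the highest control, and ad libitum dog 7 was the lowest of all 9. The means were 12.07 ± 0.95 (SD, n = 5) and 11.64 ± 0.68 (SD, n = 4), a difference of 0.43 (SE 0.50, 95% interval -0.69 to 1.54), the highest of the 48. Without ad libitum dog 7 it was 0.85, with an unadjusted p under 0.05 and a limma adjusted p of 0.340, and without control dog 3 it was 0.16. With the adipocyte or the fibroblast and matrix mean as a covariate the difference was -0.54 or -0.61. The suffix of this probe set (_x_at) marks probes that can also match other sequences, and EEF1A1 has near-identical relatives, so its level is uncertain. The log2 ratio of EEF1A2 to EEF1A1, set to 0 at the control mean, was -1.05, -1.10, -0.88, 1.20 and -0.91 in ad libitum dogs and -0.56, 0.98, 0.19 and -0.62 in control dogs, a change of -0.55 with overlapping groups.

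EEF2, the translocase, stood at 13.65, 13.22, 13.55, 13.06 and 13.86 in ad libitum and 13.31, 13.32, 13.48 and 13.60 in control dogs. Both the lowest and the highest dog were fed ad libitum, and the difference was 0.038 (SE 0.17, 95% interval -0.35 to 0.43). EEF1E1, a scaffold protein of the aminoacyl-tRNA synthetase complex, differed by -0.15. The methyltransferase genes EEF1AKMT1 and EEF1AKNMT, whose products modify eEF1A, differed by 0.072 and -0.079. EEFSEC, which brings selenocysteine to the ribosome, stood at 5.46, 5.28, 5.34, 6.38 and 6.02 in ad libitum and 5.47, 6.83, 5.79 and 6.07 in control dogs. Control dog 3 and ad libitum dog 7 were highest, and the difference was -0.34 (SE 0.32, 95% interval -1.06 to 0.37). The difference of EEFSEC was 0.060 or 0.34 with the adipocyte or the fibroblast and matrix covariate, -0.078 without control dog 3 and -0.53 without control dog 1.

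The remaining 4 of the 52 genes did not reach the filter. EEF2K, the kinase that inhibits eEF2, read 2.20 to 2.29 in ad libitum and 2.22 to 2.34 in control dogs. EIF4E1B, an oocyte relative of EIF4E, read 2.01 to 2.05 over all dogs and EIF5A2 read 3.22 to 3.41. EIF4E2, a cap-binding repressor, read 3.66 to 3.92 against 3.85 to 4.01 on a probe set that can match other sequences. These levels lie under the filter, and no difference is given.

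**Figure D3:**
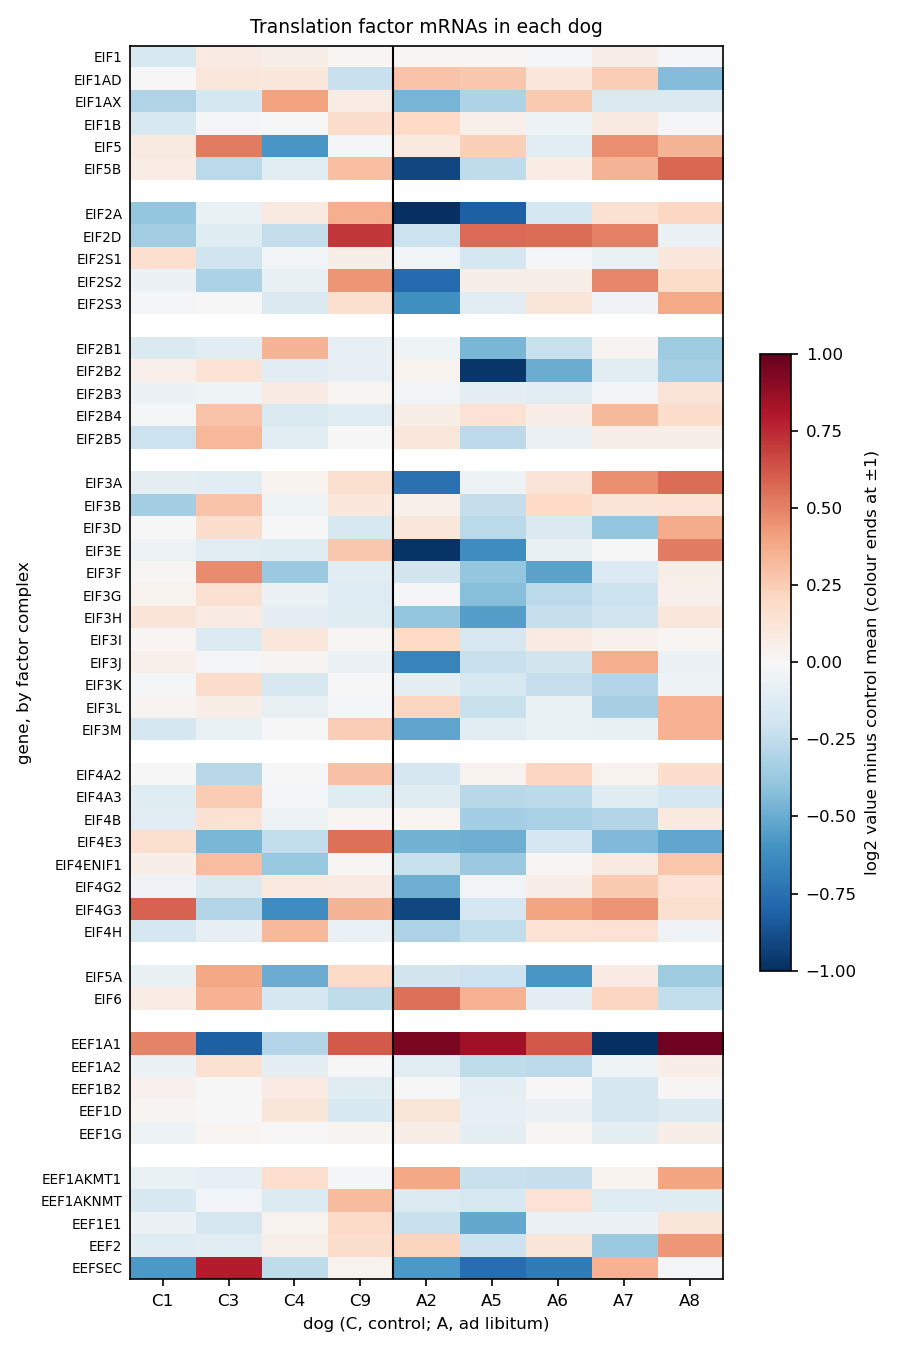
Log2 value of each tested factor (rows, by complex) in each dog (columns, 4 control and 5 ad libitum), as the difference from the control mean, with colours ending at 1 unit in either direction. Ad libitum dog 2 is low across several eIF2, eIF3 and eIF4 members, ad libitum dog 5 is low in EIF2B1, EIF2B2 and several eIF3 members, and the EEF1A1 row spans the whole scale.

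Dogs differed from each other across many factors at once. Ad libitum dog 5 lay below the 9-dog mean for 38 of the 48 factors, with a median deviation of -0.16, and it was the lowest dog for 12 (25%, against 13.2% of all probe sets) and the highest for 0. Among these 12 were EIF2B1, EIF2B2, EIF2B5, EIF3G, EIF3H, EIF4A3, EIF4B and EEFSEC. Ad libitum dog 2 was lowest for another 12 (25%, against 18.5%), among them EIF5B, EIF2A, EIF2S2, EIF2S3, EIF3A, EIF3E, EIF3J, EIF3M, EIF4G2 and EIF4G3. Control dog 3 was highest for 14 (29.2%, against 15.4% of all probe sets). Ad libitum dog 8, above the mean for 33 factors with a median deviation of 0.14, was highest for 11 (22.9%, against 15.8%). The eIF3 median, set to the control mean, was -0.14, -0.23, -0.11, -0.11 and 0.12 in ad libitum dogs and 0.0017, 0.073, -0.053 and -0.013 in control dogs. That put 4 of the 5 ad libitum dogs below all controls and dog 8 above them. Dog 5 also had the highest fibroblast and matrix mean, 12.39, and dog 2 the highest GAPDH 3' minus 5' value, 2.29, and the part of either in these patterns was not tested.

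Because connective tissue markers differed between dogs, the 48 factors were set against the mean of the 8 fibroblast and matrix markers over the 9 dogs, a comparison chosen after the values were seen. Pearson's r was below 0 for 38 factors and above 0 for 10, from -0.82 to 0.74, where 58.7% of all 18394 probe sets were below 0. In exact permutation tests 5 of the 48 had an unadjusted p under 0.05, against 16.4% of all probe sets, the marker genes among them. With p adjusted over all 18394, 0 of the 48 passed 0.05, against 3.08%. A correlation with these markers was therefore common on the array, and 4 of the 5 members are described here. The other was EIF4A3, with r = -0.74. EEF1A1 had the highest value, with r = 0.74 (exact permutation p = 0.0224, adjusted p = 0.208) and rho = 0.78 (exact permutation p = 0.0172, adjusted p = 0.188), and r = 0.82 without the 2 dogs farthest from the median of the markers, ad libitum dogs 5 and 6. EEF1A2 had r = -0.73 (exact permutation p = 0.0257, adjusted p = 0.223) and rho = -0.78 (exact permutation p = 0.0172, adjusted p = 0.188). Without these dogs its r was -0.35. Leaving them out also narrows the range of the markers, so how far the relation rests on them cannot be told. EIF2B2 had r = -0.82 (exact permutation p = 0.00635, adjusted p = 0.108) and rho = -0.67 (exact permutation p = 0.0589, adjusted p = 0.323). Its r was -0.37 without these dogs, with the same limit. EEFSEC had r = -0.79 (exact permutation p = 0.0103, adjusted p = 0.143) and rho = -0.95 (exact permutation p = 0.000353, adjusted p = 0.0282), and r = -0.69 without them. The rank correlation of EEFSEC was the only one of the 48 with an adjusted p under 0.05. As deviations from the group means, which remove the feeding difference, r was 0.78 for EEF1A1, -0.65 for EEF1A2, -0.72 for EIF2B2 and -0.81 for EEFSEC. Against the adipocyte marker mean, r was 0.75 for EEF1A1, -0.40 for EEF1A2, -0.36 for EIF2B2 and -0.59 for EEFSEC. The macrophage mean was also highest in dogs 5 and 6 and was not set against the factors. Which of these cell types the relations follow was not tested. Within the groups, 5 and 4 dogs were too few for a correlation.

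**Figure D4:**
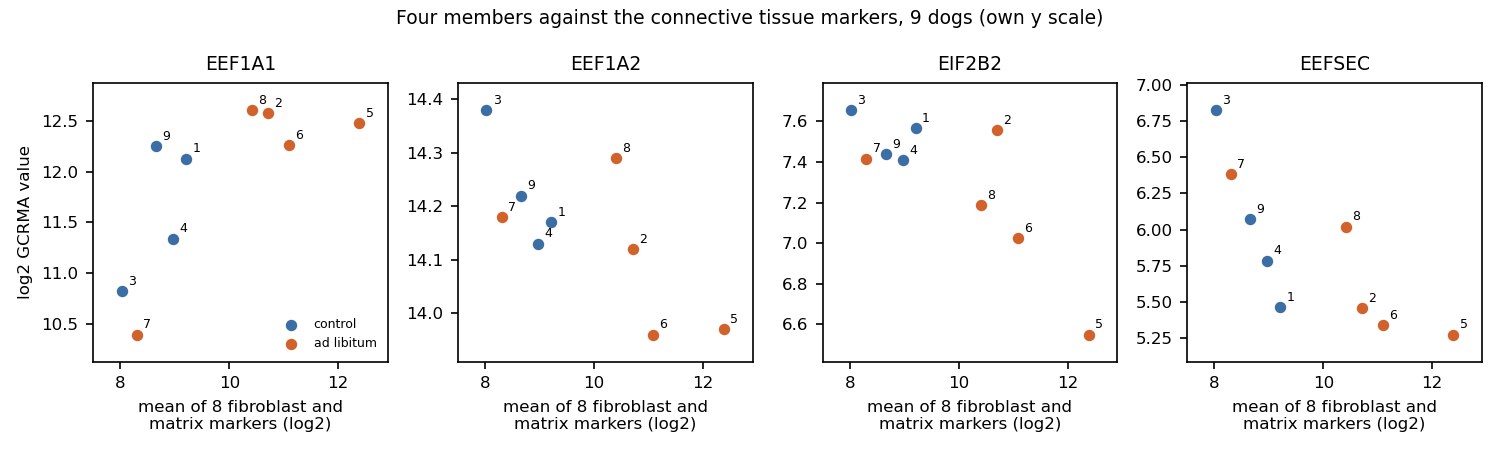
Log2 value of EEF1A1, EEF1A2, EIF2B2 and EEFSEC (y axes, separate scales) against the mean log2 value of 8 fibroblast and matrix markers (x axis) in the 9 dogs, numbered and coloured by group. EEF1A1 is lowest in dogs 3 and 7, which have the lowest marker means, and the other 3 are lowest in dogs 5 or 6, which have the highest.

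Genes that act on the factors were described from lists chosen with earlier results of these data known. Of the regulators left out of the members, 7 had a probe set and 4 were tested. EIF4EBP1, the repressor that holds EIF4E off the cap, differed by -1.04 (SE 0.23, limma adjusted p = 0.797), with an unadjusted p under 0.05 and all 5 ad libitum dogs below all controls. With the adipocyte or the fibroblast and matrix covariate it was -0.84 or -0.61. Its target EIF4E differed by -0.24 (SE 0.39). The eIF2 kinase genes EIF2AK1 and EIF2AK4 differed by -0.056 and 0.067, and EIF2AK2, EIF2AK3 and EIF4EBP2 were below the filter.

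The response to eIF2 phosphorylation was read from genes downstream of eIF2 and from its regulators. Of 8 listed, TRIB3, at 1.96 to 2.00, and PPP1R15B, at 2.44 to 2.67, were below the filter. The other 6 were tested, with 5 higher and 1 lower in ad libitum dogs. An unadjusted p under 0.05 was reached by 3, all higher, where 3.71% of all probe sets were higher at that level, and none passed after adjustment. The list was chosen with earlier results of these data known, so this count is not a test of the response. DDIT3, the stress transcription factor CHOP, stood at 6.59, 6.20, 6.49, 7.00 and 6.15 in ad libitum and 5.67, 5.61, 6.15 and 5.08 in control dogs. Only ad libitum dog 8 fell within the control range, just under control dog 4, and the difference was 0.86 (SE 0.24, limma adjusted p = 0.797). PPP1R15A, the phosphatase subunit GADD34 that restores eIF2, stood at 8.38, 8.32, 8.52, 7.62 and 8.37 against 7.98, 7.04, 7.38 and 7.74. Here ad libitum dog 7 lay among the controls, and the difference was 0.71 (SE 0.24, limma adjusted p = 0.797).

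IMPACT, which restrains the eIF2 kinase GCN2, stood at 6.39, 6.27, 6.62, 7.04 and 7.11 in ad libitum and 5.69, 6.18, 6.30 and 6.35 in control dogs. Ad libitum dog 5 fell among the controls, and the difference was 0.56 (SE 0.22, limma adjusted p = 0.797). ATF4, the transcription factor whose translation rises when eIF2 is phosphorylated, differed by -0.13 (SE 0.14). With the adipocyte or the fibroblast and matrix covariate the differences were 1.22 or 1.14 for DDIT3, 0.26 or 0.27 for PPP1R15A, 0.89 or 0.93 for IMPACT and 0.099 or 0.055 for ATF4. GCN1 and NCK1 differed by 0.0037 and 0.13.

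**Figure D5:**
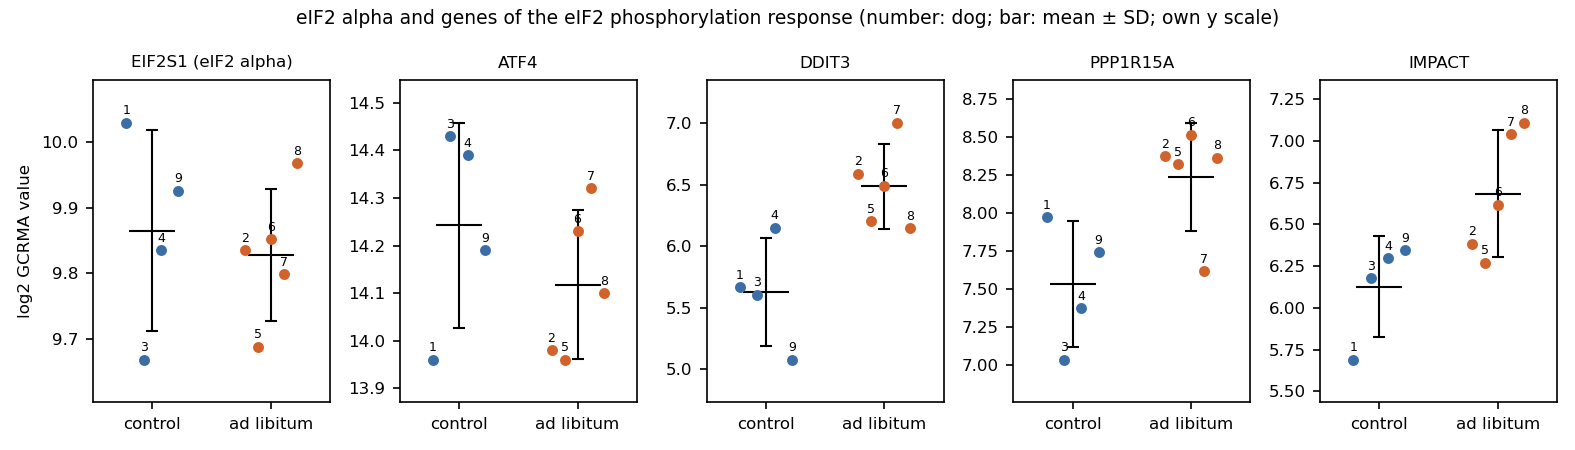
Log2 GCRMA value of each dog for EIF2S1 and for 4 genes of the eIF2 phosphorylation response or its regulation, with dogs numbered, bars for the mean ± SD (4 control and 5 ad libitum) and a separate y axis per gene. IMPACT acts upstream, on the eIF2 kinase GCN2. For DDIT3, PPP1R15A and IMPACT, 4 of 5 ad libitum dogs lie above all controls, and for EIF2S1 and ATF4 the groups overlap throughout.

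Of 20 other cytosolic translation factors and poly(A)-binding genes, all tested, ad libitum dogs had the higher mean for 6 and the lower for 14, with a median of -0.10, and none had an unadjusted p under 0.05. GSPT2 and HBS1L, which act in termination and ribosome rescue, had the outermost values of 0.45 and -0.45, and PABPC1, the main poly(A)-binding protein, differed by 0.18. GSPT2 averaged 3.96 in control dogs, under the filter, which leaves the size of its difference uncertain. All 9 measured mitochondrial translation factors had the lower mean in ad libitum dogs, with a median of -0.13 and none at an unadjusted p under 0.05. Of all probe sets 51.6% had the lower mean. The genes of a list share dogs, so neither split was tested. TUFM, the mitochondrial counterpart of eEF1A, differed by -0.16 (SE 0.14).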

How the data were processed

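Muscle RNA of 9 dogs was measured on 1 Affymetrix canine array per dog, from total RNA extracted with Trizol, per the labels' protocols. The authors deposited GCRMA values, 1 per probe set, as their processing notes state without a version. GCRMA corrects background by probe sequence and equalises the arrays by quantiles, so a shift shared by most transcripts would not appear. The deposited values, 0.652 to 16.6, were taken as log2 from their range, since no source used here states the log base. After removing 111 controls from 43035 probe sets, 18394 exceeded log2 4 on 4 or more arrays and entered the test. Names came from the platform annotation. Of the 52 genes, 48 had an Entrez ID in the gene table of UU_Cfam_GSD_1.0, and 0 symbols differed.

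Groups were taken from each sample's title. Ad libitum minus control differences came from lmFit and eBayes of limma 3.58.1, run in R 4.3.3 (two-sided, no covariate, 9 arrays, 7 residual and 2.32 prior degrees of freedom) and adjusted by the Benjamini-Hochberg method over all tested probe sets. The threshold was an adjusted p under 0.05. The fit was tested on simulated data. With 9 arrays, the median standard error of a difference was 0.20. The labels name no batch or litter. The members and lists were chosen with earlier results of these data known. Values in every dog were given for members with an unadjusted p under 0.05 or with groups that do not overlap, of which there were 0, for the largest difference per complex, and for 12 genes chosen for their roles, of which EIF4G1 and EIF4A1 were not analysed here and EEF2K was below the filter. EIF1, EIF2D, EIF5B and the genes of the eIF2 response were chosen for fuller description with their values known. Alternatives were other filters, a floor, normalizations, variance models, an unmoderated test, a threshold of 0.10, array weights, marker covariates, other probe sets of a gene and leaving out each dog.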

Additional observations from a re-analysis of the deposited data

Results flagged for a closer look

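Within each group the factor values were checked for 1 dog far from the others by Dixon's criterion at the 95% level, which chance meets in about 1 of 20 groups. Of 96 checks, 5 met it. For EEF1A1, ad libitum dog 7 read 10.39 and the other 4 read 12.26 to 12.61, a gap of 0.842 of the range. For EIF2B1, control dog 4 read 8.89 and the other 3 read 8.41 to 8.47 (0.874 of the range). For EIF1AD, ad libitum dog 8 read 5.64 and the others 6.18 to 6.36 (0.75). For EEF1AKNMT, ad libitum dog 6 read 5.52 and the others 5.22 to 5.26 (0.866), and without that dog the difference was -0.13. For EIF4E3, the same dog read 4.67 and the others 4.32 to 4.40 (0.776), and without it the difference was -0.48.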

How the results depend on the processing

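In limma fits, 0 probe sets were called in the main setting, at an adjusted p under 0.10 and in all alternatives except 2: 1 was called with values below log2 4 raised to 4, and 1 without ad libitum dog 8, so leaving out 1 dog gave 0 to 1. Unadjusted, 0 of the 48 factors had p under 0.05, against 1 with median-centred arrays (EIF4E3), 2 with array weights (EIF2B2 and EIF4E3), 1 with the adipocyte covariate (EIF4E3) and 0 to 2 without 1 dog. Intervals inside 1.5-fold numbered 34, 18 with the adipocyte covariate, 24 with the fibroblast and matrix covariate and 29 to 34 without 1 dog. The median of the start-site factors was 0.12 with the adipocyte covariate. With the fibroblast and matrix covariate the medians of eIF2 and its relatives, eIF2B and the eIF4 group were 0.081, 0.0025 and 0.042. Those of eIF5A with eIF6 and of eEF2 with other elongation genes were 0.080 and 0.0080. The medians given for the fibroblast and matrix covariate were all of the opposite sign to their main values, and with that covariate the median of all 48 was 0.011. With the adipocyte covariate the eIF2 and eIF2B medians also turned, to 0.039 and 0.017. Without control dog 1 the start-site median was -0.0029, and without control dog 3 that of eIF5A with eIF6 was 0.076. Without ad libitum dog 2 the eIF2 and eIF4 medians were 0.087 and 0.00019, and without control dog 9 the eEF2 median was 0.026. These too were of the opposite sign, as was the start-site median with arrays centred on their medians. Factors lower in ad libitum dogs numbered 33, and 28 to 37 without 1 dog. Of the 48 factors, 22 kept their direction and side of the threshold in all settings other than those without 1 dog. Differences turned sign, the cause not tested, in the following settings. With arrays centred on their medians the values were EIF1 -0.032, EEF2 -0.0041, EIF3I -0.0022 and EIF2S2 -0.039. With cyclic loess the values were EEF1G 0.0020 and EIF2S2 -0.0060. With array weights the values were EIF2S2 -0.066 and EEF1AKMT1 -0.015. With the adipocyte covariate the values were EIF4G2 0.18, EEF2 -0.098, EIF4H 0.19, EEF1A1 -0.54, EIF3M 0.014, EIF3J 0.11, EIF5B 0.15, EIF2A 0.039, EIF1AX 0.069, EIF2B3 0.017, EIF2B5 0.029, EEFSEC 0.060 and ATF4 0.099. With the fibroblast and matrix covariate the values were EEF1A2 0.014, EIF4G2 0.11, EEF2 -0.060, EIF4H 0.069, EEF1A1 -0.61, EIF3E 0.038, EIF3J 0.11, EIF5B 0.21, EIF2A 0.081, EIF4G3 0.17, EEF1E1 0.0080, EIF2B3 0.0025, EIF4ENIF1 0.20, EIF2B5 0.18, EEFSEC 0.34 and ATF4 0.055. With the mean of a gene's probe sets the values were EIF1 -0.048, EIF3A -0.012, EIF2D -0.0083, EIF5B 0.0081, EIF3B -0.017 and EIF2B3 0.025. With the second probe set the values were EIF1 -0.090, EIF3A -0.092, EIF2D -0.065, EIF5B 0.12, EIF3B -0.048, EIF2B3 0.029 and EIF6 -0.0052. Without 1 dog, 22 factors turned sign, with ranges of EIF1 -0.043 to 0.037, EEF1G -0.031 to 0.010, EIF4A2 -0.035 to 0.16, EIF4G2 -0.083 to 0.11, EEF2 -0.060 to 0.14, EIF3I -0.0074 to 0.088, EIF4H -0.12 to 0.045, EIF3L -0.10 to 0.068, EIF2S3 -0.16 to 0.087, EIF3D -0.17 to 0.018, EIF3A -0.054 to 0.27, EIF3M -0.20 to 0.023, EIF2S2 -0.12 to 0.20, EIF2S1 -0.10 to 0.019, EIF5B -0.19 to 0.19, EIF3B -0.060 to 0.15, EIF4G3 -0.22 to 0.21, EIF2B3 -0.066 to 0.0020, EIF4ENIF1 -0.17 to 0.060, EIF2B5 -0.088 to 0.093, EEF1AKMT1 -0.0078 to 0.15 and EEF1AKNMT -0.13 to 0.026. No paired analysis was possible because the groups share no animal numbers. With 9 arrays the data limit what can be seen, since the median standard error of the factors was 0.16.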
